A study of Mus musculus with 6 samples.

Results

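The RNAs described here are long non-coding RNAs that host small nucleolar RNAs (snoRNAs) within their introns. The list held 10 mouse genes, Gas5, Snhg1, Snhg3, Snhg5, Snhg6, Snhg8, Snhg12, Snhg15, Zfas1 and Epb41l4aos, and they were found in the expression table by the Ensembl identifier of each symbol. Of the 10 genes, 9 had a row among the 23504 rows of the table, and Snhg3 was not analysed here. The genes were listed for their function and not for a measured value, but with earlier results of these data known.

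The RNA came from bone marrow–derived macrophages (BMMs), precursors of the bone-resorbing osteoclast, of C57BL/6 mice. In 3 libraries the cells had received DASA-58, a small-molecule activator of the glycolytic enzyme PKM2, together with RANKL, the cytokine that drives osteoclast formation, and in 3 control libraries they had received an equal volume of the solvent DMSO. RNA was taken after 3 days. The labels name the activator DASA-58 whereas the design text writes DASA-48, and that text does not say in so many words that the control wells also received RANKL. The paper's Results name both DASA-58 and DMSO cells and then describe RANKL induction over the 3 days. The labels do not state whether the replicates came from separate mice or cultures, so the p-values measure only the spread between these libraries.

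The libraries held between 18191560 and 18968556 fragments, as recovered from the steps of the FPKM values (fragments scaled to gene length and to the total of the library). When 0 fragments are seen, the upper 95% limit of the expected count is about 3. At this depth 3 fragments correspond to between 0.158 and 0.165 FPKM for a gene of 1 kilobase. Macrophage markers were present, with the F4/80 gene Adgre1 at 326.1 ± 7.70 FPKM in the DMSO libraries against 390.2 ± 0.774 FPKM in the DASA-58 libraries (mean ± SD, n = 3 each). The osteoclast markers Ctsk, the collagen-degrading cathepsin K, and Acp5, the enzyme TRAP, were present in both groups and were lower with DASA-58 at 52.2% and 53.2% of their DMSO level. Pkm, the gene of the targeted enzyme, had 575.2 ± 9.70 FPKM in the DMSO libraries against 574.9 ± 6.09 FPKM in the DASA-58 libraries. Since the activator acts on the protein, the level of this RNA does not check the treatment.

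A snoRNA is cut from an intron of its host after splicing and then guides a chemical modification of ribosomal RNA, as a methyl group for the box C/D class or as pseudouridine for the H/ACA class. Several of these hosts begin with a 5′ terminal oligopyrimidine tract (TOP), a run of C and T that ribosomal protein mRNAs also carry and that places their translation under mTOR and LARP1. Their spliced transcripts hold only short reading frames, and those of several hosts, Gas5 among them, are known to be destroyed by nonsense-mediated decay (NMD) when ribosomes read them.

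The sequences around the annotated start were examined first, since the TOP tract is the feature that the hosts are known to share with ribosomal protein genes. RefSeq promoters of build GRCm38.p6 were at hand for 7 of the 9 hosts, with a pair of starts for Gas5. Each line below gives 45 bases, 15 before and 30 from the start, with the longest run of C and T that touches the 10 bases on either side of the start in capitals.
Gas5, upstream start, chr1:161034586-161034630, plus strand: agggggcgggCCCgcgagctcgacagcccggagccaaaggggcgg
Gas5, downstream start, chr1:161035151-161035195, plus strand: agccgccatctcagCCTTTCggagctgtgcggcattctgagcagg
Zfas1, chr2:167062919-167062963, plus strand: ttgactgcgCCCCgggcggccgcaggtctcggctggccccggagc
Snhg8, chr3:123508307-123508351, minus strand: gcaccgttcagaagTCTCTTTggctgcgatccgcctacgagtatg
Snhg12, chr4:132308663-132308707, plus strand: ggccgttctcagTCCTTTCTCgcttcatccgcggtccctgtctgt
Snhg5, chr9:88522868-88522912, minus strand: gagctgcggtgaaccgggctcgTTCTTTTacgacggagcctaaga
Snhg15, chr11:6528731-6528775, minus strand: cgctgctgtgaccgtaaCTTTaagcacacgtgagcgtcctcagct
Snhg1, chr19:8723472-8723516, plus strand: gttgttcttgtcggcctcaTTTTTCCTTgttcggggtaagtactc

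A run of at least 5 pyrimidines was found in 5 of these 8 windows, in the downstream Gas5 start, Snhg8, Snhg12, Snhg5 and Snhg1. The same was true of 44.9% of the 32851 RefSeq promoters and of 67.6% of the 68 promoters of cytosolic ribosomal protein genes, so a run of this length is a weak mark of the hosts. The longest runs had 9 bases, in Snhg12 and Snhg1, a length reached in 9.55% of all promoters and 39.7% of those of ribosomal protein genes. In Snhg15 and Zfas1 the longest run had 4 bases. The palindrome CACGTG, the letters bound by MYC and related factors, occurred within the 300-base promoter of Snhg15 alone among the 7 hosts searched, against 7.15% of all promoters (a palindrome reads alike on both strands). An annotated start is not a measured one, and a match of letters does not show that a site is used.

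The body of each host is described by its snoRNAs. In the GENCODE M21 annotation (build GRCm38) the 9 hosts contained 30 snoRNA positions of between 60 and 137 bases. Gas5 held 9 of them, Snhg1 held 8, Snhg12 held 4, Zfas1 held 3 and Snhg5 held 2, whereas Snhg6, Snhg8, Snhg15 and Epb41l4aos each held 1. In 29 positions, those outside Epb41l4aos, box C (ATGATGA or GTGATGA, in the first 25 bases or starting there) together with box D (CTGA, in the last 20 bases) was found on the snoRNA strand in 18 and the trinucleotide ACA near the end of an RNA of over 100 bases in 4, while these exact letters were missing from 7. A few of them are shown, 2 of the box C/D class and 1 of the H/ACA class, with the boxes in capitals, since these RNAs define a host.
Snord47, box C/D, in Gas5, chr1:161038082-161038158, plus strand: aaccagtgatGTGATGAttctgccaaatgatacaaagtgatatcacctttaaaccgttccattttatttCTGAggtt
Snord50a, box C/D, in Snhg5, chr9:88521529-88521600, minus strand: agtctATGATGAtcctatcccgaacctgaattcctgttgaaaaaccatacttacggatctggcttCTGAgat
Snora9, H/ACA, in Snhg15, chr11:6528033-6528165, minus strand: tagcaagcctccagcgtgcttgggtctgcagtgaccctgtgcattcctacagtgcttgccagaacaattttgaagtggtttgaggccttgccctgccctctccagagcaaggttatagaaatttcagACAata

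**Figure D1:**
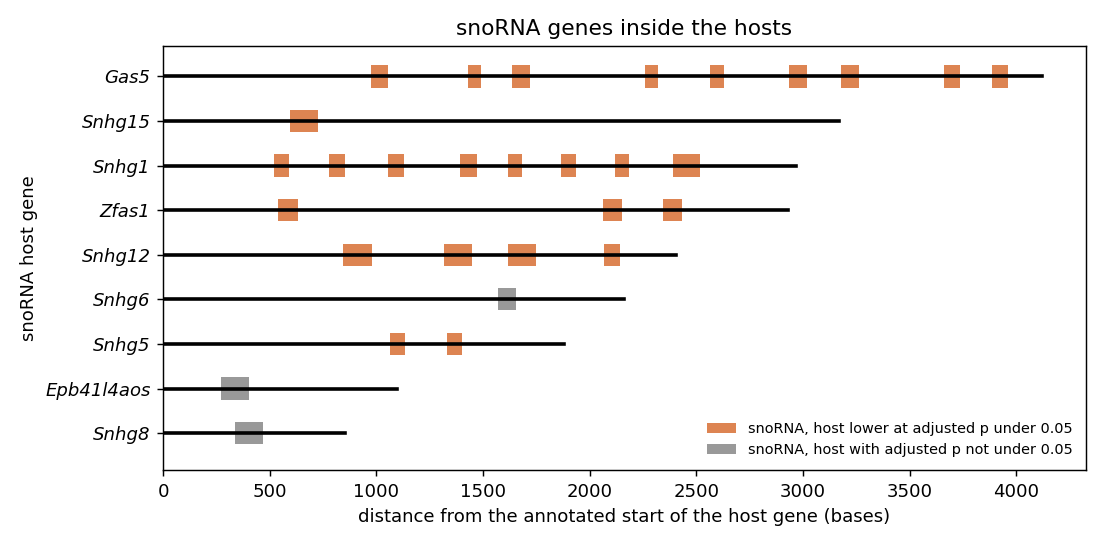
Each horizontal line is a host gene drawn to scale from its annotated start (x axis, bases) and each box a snoRNA gene inside it. Hosts that passed the test are in orange and the others in grey. Gas5 is the longest host and carries 9 snoRNAs, and Snhg8 is the shortest with 1.

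The snoRNAs themselves were almost unmeasured. Only 2 of the 32 annotated entries had a row, Snord87 in Snhg6 and Gm23639 in Epb41l4aos, and neither reached a mean of 1 FPKM. Snord87 was counted with 1 fragment in each of DMSO replicates 1 and 2 and with 0 in the other libraries. Gm23639 was counted with 2, 1 and 0 fragments with DMSO and with 0, 0 and 1 with DASA-58. All values that follow are therefore levels of the host RNA, and they do not measure the snoRNAs.

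The host RNAs were lower with DASA-58. Of the 9 hosts, 6 passed the test in the lower direction and 0 in the higher, by limma on log2(FPKM + 1) with Benjamini-Hochberg adjustment over 10965 genes. Across all genes tested 7.28% were lower and 4.24% higher by the same rule. At an unadjusted p under 0.05 the hosts gave 7 lower and 0 higher, where all genes gave 18.0% and 9.83%. Voom on the recovered fragments also gave 7 and 0, where all genes gave 11.9% and 6.52%. The log2 fold change was below 0 for all 9 hosts, with a median of -0.28 against -0.03 for all genes. In 6 hosts the highest value with DASA-58 was under the lowest with DMSO, an arrangement that 21.6% of all genes tested showed. An exact permutation test of 3 against 3 libraries cannot give a two-sided p below 0.10, the value of each of these 6 hosts. The sum of the 9 hosts lay between 95.9 and 102.7 FPKM in the DMSO libraries and 79.2 to 87.0 FPKM in the DASA-58 libraries.

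**Figure D2:**
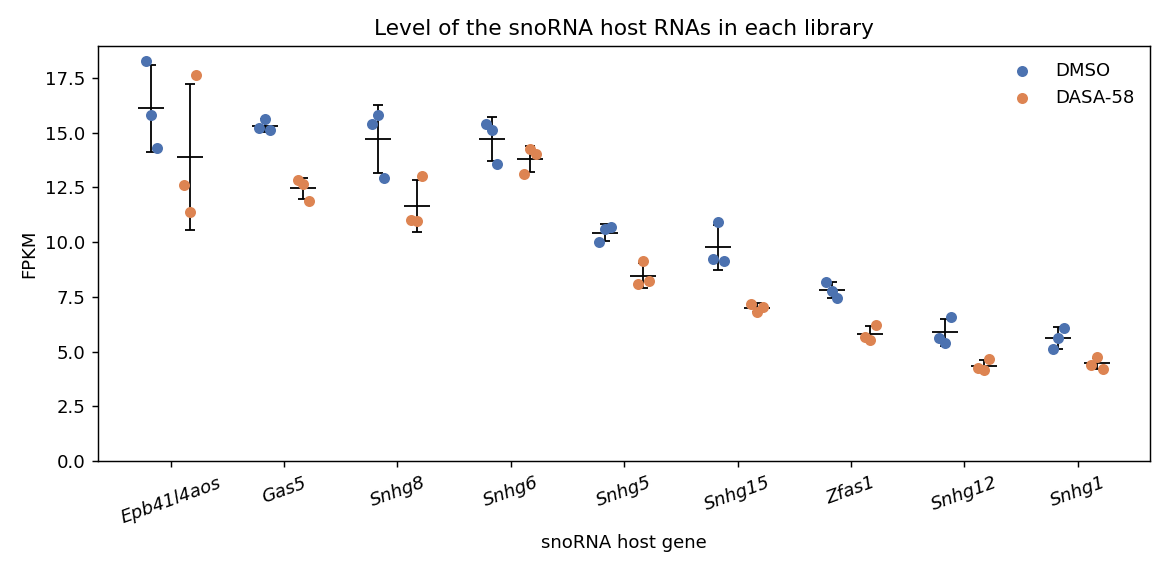
FPKM (y axis) of each host in each of the 6 libraries, DMSO in blue and DASA-58 in orange, with hosts ordered by their DMSO mean. Horizontal ticks are means and bars are 1 SD (n = 3). The groups are apart in Gas5, Snhg5, Snhg15, Zfas1, Snhg12 and Snhg1 and overlap in Epb41l4aos, Snhg8 and Snhg6.

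With DMSO the levels fell into 4 steps. Epb41l4aos, Gas5, Snhg8 and Snhg6 had means between 14.7 and 16.1 FPKM with neighbouring ranges that overlapped, followed by Snhg5 and Snhg15 with 10.4 and 9.76 FPKM, whose ranges overlapped as well. Zfas1 followed with 7.80 FPKM, apart from its neighbours in the order, and Snhg12 and Snhg1 had 5.88 and 5.62 FPKM with overlapping ranges. This order is per base of a length that, for several hosts, includes retained introns. For Gas5, 20 of 25 annotated transcripts retain an intron, so that the length covers 3760 of its 4118 bases, and for Snhg1 and Zfas1 it covers the whole gene. If every fragment belonged to the spliced exons alone, Gas5 would stand at 67.6 FPKM and Zfas1 at 31.0 FPKM. The order between hosts thus depends on the annotation. Within 1 host the length is the same in all libraries and cancels in the percent of the DMSO mean. It does enter the log2 fold change, since 1 is added to the FPKM value. A shift between spliced and intron-retaining forms was not tested.

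Gas5, named for its accumulation in growth-arrested cells and host to box C/D snoRNAs, lies on the plus strand (ENSMUSG00000053332, chr1:161034422-161038539). It had 15.2, 15.6 and 15.1 FPKM with DMSO and 12.8, 12.7 and 11.9 FPKM with DASA-58. The groups did not overlap, and between 849 and 1109 fragments lay behind each value, the most of any host. Gas5 was lower by a log2 fold change of -0.28 (SE 0.0397, 95% interval -0.37 to -0.19, limma adjusted p = 0.00491), which left 81.4% of the DMSO mean. Its adjusted p was under 0.05 in all 17 alternative settings.

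Zfas1, the antisense transcript at the start of Znfx1 and host to box C/D snoRNAs of the Snord12 family, lies on the plus strand (ENSMUSG00000074578, chr2:167062934-167065862). It had 8.17, 7.79 and 7.44 FPKM with DMSO and 5.68, 5.54 and 6.21 FPKM with DASA-58. The highest DASA-58 library was below the lowest DMSO library. Zfas1 changed by -0.37 on the log2 scale (SE 0.0543, 95% interval -0.50 to -0.24, limma adjusted p = 0.00543), which left 74.5% of the DMSO mean.

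Snhg15, host to Snora9, lies on the minus strand (ENSMUSG00000085156, chr11:6525591-6528760). It had 9.22, 10.9 and 9.13 FPKM with DMSO and 7.19, 6.80 and 7.02 FPKM with DASA-58. The DASA-58 libraries lay close together, with a coefficient of variation of 2.83%, and all were below the DMSO libraries. Among the hosts its log2 fold change of -0.42 was the lowest (SE 0.0668, 95% interval -0.58 to -0.27, limma adjusted p = 0.00737), and 1.65% of all genes tested had a lower one. The mean with DASA-58 was 71.7% of that with DMSO.

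Snhg12, which carries the H/ACA RNAs Snora16a, Snora44 and Snora61 and the box C/D RNA Snord99, lies on the plus strand (ENSMUSG00000086290, chr4:132308623-132311024). It had 5.63, 5.42 and 6.59 FPKM with DMSO and 4.25, 4.16 and 4.67 FPKM with DASA-58. The groups were apart in every library. Snhg12 changed by -0.36 on the log2 scale (SE 0.0734, 95% interval -0.53 to -0.19, limma adjusted p = 0.0206), with 74.2% of the DMSO mean. The annotated length of 2402 bases did not give whole fragments for this gene, whereas 1626 bases did, with between 123 and 195 fragments per library.

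Snhg5, host to Snord50a and Snord50b, lies on the minus strand (ENSMUSG00000097195, chr9:88521050-88522929). It had 10.0, 10.6 and 10.7 FPKM with DMSO and 8.07, 9.12 and 8.23 FPKM with DASA-58. The groups did not overlap. Snhg5 changed by -0.27 on the log2 scale (SE 0.0527, 95% interval -0.40 to -0.15, limma adjusted p = 0.0161), with 81.2% of the DMSO mean.

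Snhg1, host to Snord22 and 7 further snoRNAs, lies on the plus strand (ENSMUSG00000108414, chr19:8723475-8726443). It had 5.14, 5.63 and 6.10 FPKM with DMSO and 4.4, 4.76 and 4.23 FPKM with DASA-58. The groups were apart, narrowly so between DMSO replicate 1 and DASA-58 replicate 2. The log2 fold change of -0.28 (SE 0.0667, 95% interval -0.43 to -0.12) had a limma adjusted p of 0.036, and it stayed under 0.05 in 6 of 17 alternative settings.

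The other three hosts did not pass the test, and their groups overlapped. Snhg8, host to Snora24 on the minus strand (ENSMUSG00000104960, chr3:123507552-123508404), had 15.4, 15.8 and 12.9 FPKM with DMSO and 11.0, 11.0 and 13.0 FPKM with DASA-58. The overlap came from DMSO replicate 3 and DASA-58 replicate 3. The log2 fold change was -0.31 (SE 0.0874, 95% interval -0.51 to -0.11, limma adjusted p = 0.0611), and the adjusted p was under 0.05 in 5 of 17 alternative settings.

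Snhg6, host to Snord87 on the minus strand (ENSMUSG00000098234, chr1:9941959-9944118), had 15.4, 15.1 and 13.6 FPKM with DMSO and 13.1, 14.3 and 14.03 FPKM with DASA-58. The groups overlapped widely, with a log2 fold change of -0.08 (SE 0.0553, 95% interval -0.21 to 0.04, limma adjusted p = 0.371). The adjusted p was under 0.05 in 0 of 17 alternative settings.

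Epb41l4aos (ENSMUSG00000087590, on chromosome 18) had 18.3, 15.8 and 14.3 FPKM with DMSO and 12.6, 11.4 and 17.7 FPKM with DASA-58. DASA-58 replicate 3 was above both of the lower DMSO libraries. The log2 fold change was -0.22 (SE 0.149, 95% interval -0.56 to 0.13, limma adjusted p = 0.391), and the DASA-58 libraries had a coefficient of variation of 24.0%, where counting error alone gives 9.46%. The gene is counted over 430 bases with between 89 and 144 fragments, and its SE was the largest among the hosts.

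**Figure D3:**
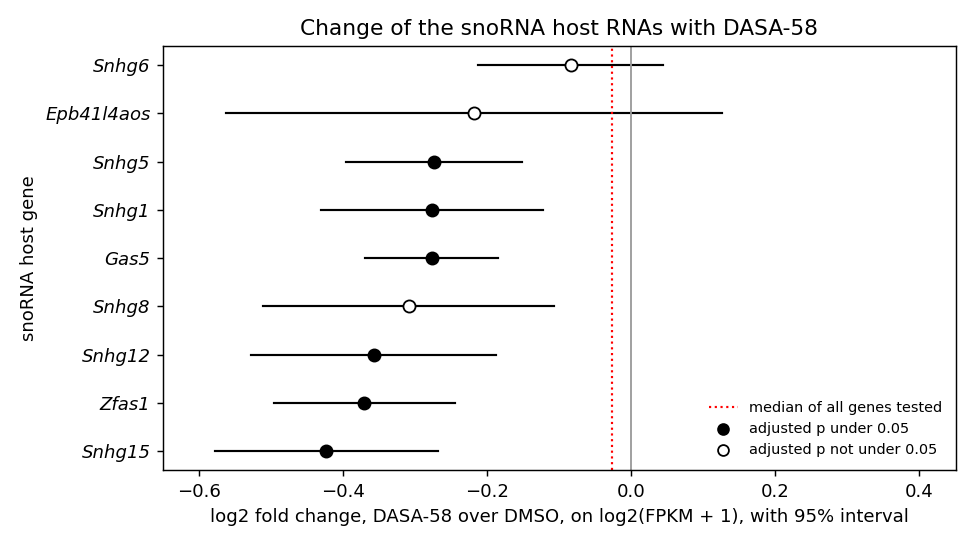
Log2 fold change of each host (points) with its 95% interval (lines) from limma on log2(FPKM + 1), negative values being lower with DASA-58. Filled points passed the test and open points did not. All 9 points lie below 0, from -0.42 in Snhg15 to -0.08 in Snhg6, and the dotted line marks the median of all genes tested, -0.03.

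Single libraries and the scaling between libraries decided some of these calls. Without DASA-58 replicate 1 only Gas5, Snhg15 and Zfas1 passed, 3 of 9 hosts, where 3.77% of all genes were lower, and without DASA-58 replicate 2 these hosts and Snhg5 passed, 4 of 9, where 4.26% of all genes were lower. Snhg1 lost the call without any 1 library other than DMSO replicate 1, Snhg12 also without DMSO replicate 1, and Snhg5 also without DASA-58 replicate 3. Snhg8 passed without DMSO replicate 3 or without DASA-58 replicate 3. When each library was centred on its median, Gas5, Snhg5, Snhg12, Snhg15 and Zfas1 passed, 5 of 9 hosts, while 504 of all genes were lower and 597 higher, against 798 lower and 465 higher before centring.

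The gene next to a host gives a comparison within the same library, in which scaling between libraries has no part. The nearest protein-coding gene by start had a mean of at least 1 FPKM for 4 hosts. All 4 were among the hosts already apart between the groups and called lower, so their ratios are no separate support. How often ratios of other gene pairs were apart was not counted. Slc3a2, the heavy chain of an amino acid transporter, starts 106 bases from Snhg1 on the opposite strand and had 77.4 ± 1.56 FPKM in the DMSO libraries against 75.4 ± 3.97 FPKM in the DASA-58 libraries (SD, n = 3 each). Its log2 fold change was -0.04 (SE 0.0405, limma adjusted p = 0.585). The ratio of Snhg1 to Slc3a2 was 0.0672, 0.0710 and 0.0797 in the DMSO libraries and 0.0611, 0.0597 and 0.0568 in the DASA-58 libraries. All DASA-58 ratios were below all DMSO ratios, as were the values of Snhg1 itself, and Snhg1 was among the less stable calls.

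Znfx1, an RNA helicase-like protein with antiviral roles, starts 81 bases from Zfas1 on the opposite strand and overlaps it by 82 bases. It had 27.8, 26.8 and 28.4 FPKM with DMSO and 24.8, 24.7 and 24.9 FPKM with DASA-58, and it was lower by a log2 fold change of -0.15 (SE 0.0327, limma adjusted p = 0.0237). The ratio of Zfas1 to Znfx1 was 0.294, 0.291 and 0.262 with DMSO and 0.229, 0.225 and 0.250 with DASA-58, with all DASA-58 ratios below all DMSO ratios. The call of Znfx1 was lost in 9 of 17 alternative settings, among them the removal of any single library other than DMSO replicate 2. Whether counting used the strand is not given in the sources used here, and reads from overlapping bases cannot be told apart without it. The same holds for the 428 bases that Gas5 shares with Zbtb37 and the 127 bases that Snhg6 shares with Mcmdc2.

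Myo1g, a myosin of blood cells that starts 7795 bases from Snhg15 on the same strand, had 46.4 ± 0.677 FPKM in the DMSO libraries against 45.1 ± 1.40 FPKM in the DASA-58 libraries (SD, n = 3 each, log2 fold change -0.04, limma adjusted p = 0.436). The ratio of Snhg15 to Myo1g fell to 73.9% of its DMSO mean with no overlap between the groups. Zfp949, a zinc finger gene that starts 25091 bases from Snhg5, had 1.96 ± 0.0574 and 2.23 ± 0.186 FPKM (limma adjusted p = 0.292), and the ratio of Snhg5 to it was 71.7% of the DMSO mean, again with no overlap. Each of these 4 ratios had an exact two-sided permutation p of 0.10, the smallest this design allows, and 0.10 after Benjamini-Hochberg adjustment over the 4 pairs. The nearest genes of Gas5, Snhg6, Snhg8, Snhg12 and Epb41l4aos, which are Zbtb37, Tcf24, Prss12, Rab42 and Epb41l4a, were under 1 FPKM and were not tested.

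Lists of related genes were counted by the same rule, among them further hosts and targets of p53. All genes tested gave 7.28% lower and 4.24% higher by limma. They gave 18.0% and 9.83% at an unadjusted p under 0.05, and 11.9% and 6.52% by voom. Of 12 further long non-coding host genes, 8 had a row and 5 were tested, and limma called 0 of them lower and 0 higher, with 0 lower and 1 higher at an unadjusted p under 0.05 and 0 and 0 by voom. Their log2 fold changes ran from -0.12 to 0.13, with a median of -0.10. The upper end and the 1 higher gene were Mir22hg, which hosts a microRNA and not a snoRNA, and the other 4 ran from -0.12 to -0.04. Among these 4 the DMSO mean went down to 1.74 FPKM and the count in a library down to 16 fragments. At such levels the pseudocount makes fold changes smaller and a call is harder to reach. Snhg20 was not at such a level, with a DMSO mean of 9.66 FPKM and between 332 and 398 fragments. It was at 91.4% of its DMSO mean (limma adjusted p = 0.262). Snhg10, Snhg16 and Snhg17 were at 89.7%, 87.45% and 96.2%, and this percentage holds no pseudocount. The difference between these 5 and the 9 hosts above was not tested.

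Protein-coding genes outside the ribosomal proteins that also carry snoRNAs in their introns were lower in 11 of 40 tested (27.5%) and higher in 0. Their median log2 fold change was -0.10. Nop56, Nop58 and Dkc1 were also in the list of snoRNA particle proteins that follows, so these lists are not separate. At an unadjusted p under 0.05 the counts were 19 lower and 1 higher, where all genes gave 18.0% and 9.83%. Voom gave 17 and 0, where all genes gave 11.9% and 6.52%. Cct6a, a subunit of the TRiC chaperonin, had 87.6% of its DMSO mean (log2 fold change -0.19, SE 0.0279, limma adjusted p = 0.00594). Pabpc1, the cytoplasmic poly(A)-binding protein, had 90.3% (log2 fold change -0.15, SE 0.0247, limma adjusted p = 0.00953), a call that was lost after quantile normalization (limma adjusted p = 0.119). The count of 11 was 7 after centring on the median, 5 without DMSO replicate 1 or DASA-58 replicate 3, 6 without DASA-58 replicate 1 and 7 without DASA-58 replicate 2. In the order of these settings 4.6%, 3.53%, 3.65%, 3.77% and 4.26% of all genes were lower, against 7.28% before.

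The mRNAs of proteins of snoRNA particles and of their assembly were lower in 7 of 20 tested (35.0%) and higher in 0. Their median log2 fold change was -0.12. At an unadjusted p under 0.05 the counts were 9 and 0, where all genes gave 18.0% and 9.83%. Voom gave 10 and 0, where all genes gave 11.9% and 6.52%. Dkc1, the pseudouridine synthase of H/ACA particles and itself a snoRNA host, had 11.2, 11.4 and 11.7 FPKM with DMSO and 7.93, 9.56 and 8.88 FPKM with DASA-58. The groups were apart, with a log2 fold change of -0.35 (SE 0.0622, limma adjusted p = 0.0123). Nolc1, a nucleolar chaperone of snoRNA particles, was at 82.2% of its DMSO mean (log2 fold change -0.27, limma adjusted p = 0.0191), and Ruvbl1, an ATPase of their assembly, at 85.9% (log2 fold change -0.21, limma adjusted p = 0.0144). The count of 7 fell to 1 without DASA-58 replicate 3, to 2 without DMSO replicate 1, to 3 without DMSO replicate 2 or DASA-58 replicate 1, and to 4 without DMSO replicate 3 or after centring on the median. In the order of these settings 3.65%, 3.53%, 5.18%, 3.77%, 5.5% and 4.6% of all genes were lower, against 7.28% before. Nolc1 lost the call without DMSO replicate 1, DMSO replicate 3 or DASA-58 replicate 3, and Ruvbl1 without DASA-58 replicate 1 or 3.

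The cytosolic ribosomal proteins, the classical TOP mRNAs, were lower in 23 of 78 tested (29.5%) and higher in 0, and all 78 had a log2 fold change below 0. The median was -0.12, closer to 0 than the -0.28 of the hosts, and the difference was not tested. At an unadjusted p under 0.05 the counts were 60 and 0, where all genes gave 18.0% and 9.83%. Voom gave 52 and 0, where all genes gave 11.9% and 6.52%. Rps29 was at 79.0% of its DMSO mean (log2 fold change -0.34, SE 0.0427, limma adjusted p = 0.00277), Rpl3 at 88.9% (log2 fold change -0.17, SE 0.022, limma adjusted p = 0.0032) and Rpl23a at 69.9% (log2 fold change -0.49, SE 0.0737, limma adjusted p = 0.00589). The DMSO means of Rps29 and Rpl3 were 378.9 and 407.2 FPKM, whereas that of Rpl23a was only 25.2 FPKM. Many ribosomal protein genes have near-identical processed copies in the genome, so fragments may be split between them. The count depended on the scaling, with 6 lower after centring on the median and 49 at equal library totals, and with single libraries left out it was 5 without DASA-58 replicate 1, 9 without DMSO replicate 1, 10 without DASA-58 replicate 3, 11 without DASA-58 replicate 2 and 14 without DMSO replicate 2. In the order of these settings 4.6%, 8.74%, 3.77%, 3.53%, 3.65%, 4.26% and 5.18% of all genes were lower, against 7.28% before.

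**Figure D4:**
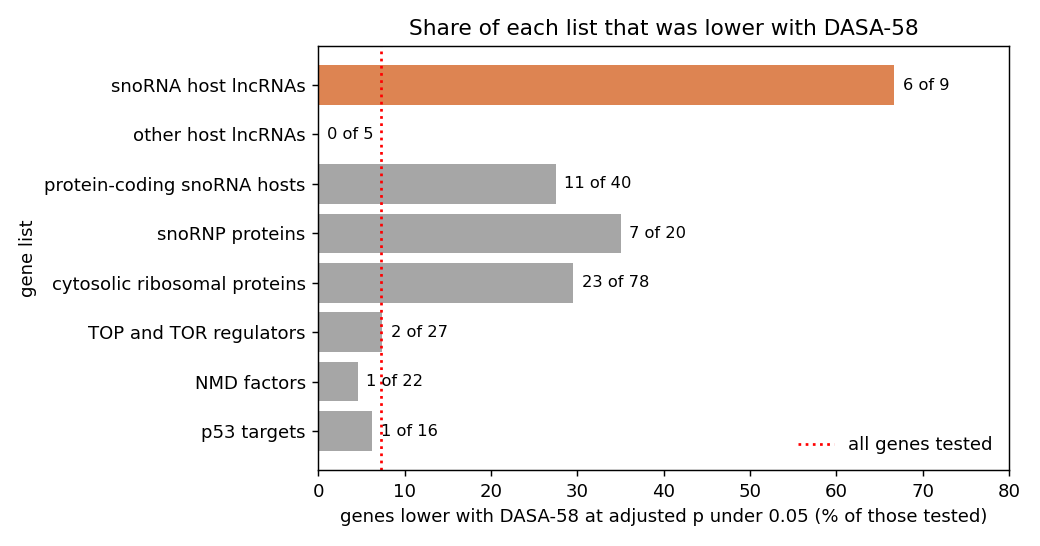
Share of the tested genes of each list (x axis, %) that passed the test in the lower direction, with the number beside each bar and the share of all genes tested, 7.28%, as a dotted line. The host long non-coding RNAs stand at 66.7%, and the other host long non-coding RNAs (0 of 5), the NMD factors and the p53 targets lie below the dotted line. Counts at an unadjusted p or by voom are not drawn.

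The regulators of TOP mRNAs and of the TOR pathway were lower in 2 of 27 tested, a share of 7.41% that is near that of all genes. At an unadjusted p under 0.05 the counts were 9 lower and 1 higher, where all genes gave 18.0% and 9.83%. Voom gave 3 and 0, where all genes gave 11.9% and 6.52%. The lower genes were Larp1, which binds TOP mRNAs, and Myc, a transcription factor that drives ribosome production. Myc had 27.4, 27.4 and 24.3 FPKM with DMSO and 16.1, 18.4 and 16.1 FPKM with DASA-58. It stood at 63.9% of its DMSO mean with no overlap between the groups (log2 fold change -0.62, SE 0.0651, limma adjusted p = 0.00124). Larp1 stood at 86.7% of its DMSO mean (log2 fold change -0.20, SE 0.0335, limma adjusted p = 0.00968).

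Among the factors of NMD, 1 of 22 was lower (4.55%) and 0 were higher by limma. There were 5 and 0 at an unadjusted p under 0.05, where all genes gave 18.0% and 9.83%. Voom gave 1 and 0, where all genes gave 11.9% and 6.52%. The lower gene was Smg5, an adaptor that brings decay enzymes to NMD targets, at 85.5% of its DMSO mean (log2 fold change -0.21, SE 0.04, limma adjusted p = 0.0157), and this call was lost without DMSO replicate 1, DASA-58 replicate 1 or DASA-58 replicate 3. Among the targets of p53, 1 of 16 was lower (6.25%), Pmaip1, which encodes the apoptosis protein NOXA, with a log2 fold change of -0.35 (SE 0.0579, limma adjusted p = 0.00919). The count was 2 without DMSO replicate 2, DMSO replicate 3 or DASA-58 replicate 2, where 5.18%, 5.5% and 4.26% of all genes were lower. None of the p53 targets was higher by limma. At an unadjusted p under 0.05 the p53 targets gave 7 lower and 1 higher of 16, where all genes gave 18.0% and 9.83%. Voom gave 5 and 0, where all genes gave 11.9% and 6.52%.

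Markers of cell types moved between the groups in the same libraries. Of all 10965 genes tested limma called 7.28% lower and 4.24% higher, and 6555 had a log2 fold change below 0 and 4410 above. All 5 osteoclast markers tested were lower, and their summed level, with a sixth marker under the filter, lay between 715.9 and 768.2 FPKM in the DMSO libraries and 413.4 to 429.8 FPKM in the DASA-58 libraries. All 6 macrophage markers had a log2 fold change above 0. Limma called 2 of them higher, with sums over all 6 between 16270 and 17120 FPKM and between 17220 and 19520 FPKM. Most of these sums came from Lyz2, with means of 15160 FPKM in the DMSO and 16830 FPKM in the DASA-58 libraries. Its groups overlapped and limma did not call it (adjusted p = 0.109). All 5 neutrophil markers had a log2 fold change below 0. Limma called 2 of them lower, the granule genes Ngp and Camp. Sums over all 5 lay between 61.7 and 65.8 FPKM and between 46.5 and 48.8 FPKM. T cell markers summed to at most 0.269 FPKM in any library, and limma called 0 of 1 B cell and 0 of 3 stromal markers (0 and 1 at an unadjusted p under 0.05 and by voom). No marker with a row was at 0 in all libraries, and 3 erythroid markers and 1 of 3 B cell markers were not analysed here. In bulk RNA fewer cells of a type and less RNA per cell cannot be told apart, and the part of these markers in the lower host levels was not tested.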

How the data were processed

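RNA of 6 libraries of mouse BMMs was sequenced, 3 per group, assigned by the treatment label. The authors deposited FPKM values for 23504 genes. The submitters' processing notes name HISAT2 2.1.0, HTSeq 0.6.0 and the build mm8, without a role for each, and whether strand was used is not given in the sources used here. Gene lengths of GENCODE M21 (GRCm38) turned 90.9% of genes into whole fragments in all libraries (within 0.02), so coordinates are printed from that annotation and fragment numbers from these lengths; PCR copies are included, and counting errors cover counting alone. Of the identifiers, 23455 had a symbol and 49 had none.

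The DASA-58 and DMSO libraries entered limma 3.58.1 (R 4.3.3; lmFit, eBayes with trend) as log2(FPKM + 1) for the 10965 genes averaging at least 1 FPKM, with Benjamini-Hochberg adjustment over all of them and a threshold of 0.05; a pseudocount makes fold changes of low genes smaller. The fit was tested on simulated data. Exact permutation tests used SciPy 1.17.1. The members, lists and tests were chosen with earlier results of these data known. Genes were named by rule: all members, snoRNAs inside them with a mean of at least 1 FPKM, the nearest protein-coding gene, the 3 called genes with the smallest p of each related list, and Pkm, Ctsk and Acp5. Named outside it, with their values seen, were Snord87, Gm23639, Mcmdc2, Mir22hg, Snhg10, Snhg16, Snhg17, Snhg20, Nop56, Nop58, Adgre1, Lyz2, Ngp and Camp. Alternatives changed the pseudocount, filter, scaling, variance model, replicate block and libraries, and voom was run on recovered fragments.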

Additional observations from a re-analysis of the deposited data

How the results depend on the processing

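The log2 fold change of all 9 hosts was below 0 in each of 17 alternative settings. The number of hosts lower at an adjusted p under 0.05, 6 as reported, was 3 with no filter on low values, 1 without variance shrinkage (Gas5) and between 3 and 6 when single libraries were left out. It was 5 after quantile normalization, centring on the median or without a trend in the variance, 6 with a pseudocount of 0.1 or 5, and 7 with a mean of at least 5 FPKM, with equal library totals or with voom. Of all genes tested 1.58% were lower with no filter and 2.86% without shrinkage. In the order of the further settings the shares were 5.36%, 4.6%, 4.7%, 7.22%, 7.33%, 11.8%, 8.74% and 11.9%. The labels do not state whether the replicate numbers pair the samples. The correlations of same-numbered libraries lay between -0.02 and 0.02, which in groups of 3 libraries cannot exclude a pairing. With the replicate number as a block 5 hosts were lower, where 5.28% of all genes were lower. Zfas1 and Snhg15 each lost the call in 1 setting, Snhg5 in 4 and Snhg12 in 5.

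Counts of lower genes in the lists moved by over 1.5 times as follows. After quantile normalization they were 7 for protein-coding hosts (with 1 higher), 4 for snoRNA particle proteins and 36 for ribosomal proteins. After centring on the median they were 7, 4 and 6. At equal library totals they were 49 for ribosomal proteins, 2 for NMD factors and 2 for p53 targets. By voom, added for the lists after the data were seen, they were 17 for protein-coding hosts, 52 for ribosomal proteins and 5 for p53 targets. With single libraries left out the ranges were 5 to 9 for protein-coding hosts, 1 to 7 for snoRNA particle proteins, 5 to 19 for ribosomal proteins, 0 to 1 for NMD factors and 1 to 2 for p53 targets. Between 3.53% and 5.5% of all genes were lower with 1 library left out. The cause of these shifts was not tested. Across all genes 588 were lower and 600 higher after quantile normalization, 958 and 386 at equal totals, 372 and 257 with no filter, 314 and 227 without shrinkage, 515 and 341 without a trend, and 1300 and 715 with voom. Of 440 fold changes recomputed, each 1 gene in 1 setting, 0 changed direction, 44 lost the call, spread over 11 genes, and 5 gained it, all of them Snhg8. Of 188 recomputed counts 36 moved by over 1.5 times. No outlier test was made in groups of 3 libraries.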
